A study of Rattus norvegicus with 2 samples.

Results

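The App family and the gamma-secretase complex were followed through 9 genes named by symbol. The genes were the precursors App, Aplp1 and Aplp2, the beta-secretase gene Bace1, the gamma-secretase subunits Psen2, Ncstn, Aph1a and Psenen, and the cytoplasmic adaptor Apbb1. The identifiers were NM_019288 (App), NM_001100802 (Aplp1), NM_031087 (Psen2), NM_019204 (Bace1), NM_174864 (Ncstn), NM_001014255 (Aph1a) and NM_080478 (Apbb1). Each symbol was matched to the RefSeq identifiers of the deposited tables, which hold 9894 genes, and 7 of the 9 had a value. No value was found for Aplp2 or Psenen by identifier or description, and both are not analysed here. The samples were cortical neurons of E16 Sprague-Dawley rat embryos, dissociated, electroporated and cultured for 48 h. The control library came from cells given the Scramble plasmid, and the other from cells given a plasmid coding for a PIWIL1 siRNA, with 1 library in each group. Both groups received a pSuper-type plasmid, grew in Neurobasal medium with serum and B27, and were read as bulk RNA. Which siRNA was sequenced and what share of the cells took up plasmid are not given in the sources used here.

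App is a type I membrane protein of neurons, and Aplp1 and Aplp2 are its relatives. Alpha-secretases or the beta-secretase Bace1 cut off the large outer part of App. The stub left in the membrane is then cut by gamma-secretase, a complex of a presenilin with nicastrin (Ncstn), an Aph1 subunit and Psenen. After a beta-secretase cut this step frees the amyloid-β peptide, and after either cut it frees the cytoplasmic tail. The adaptor Apbb1, also called Fe65, binds that tail. Gamma-secretase also cuts Notch receptors and cadherins, which links it to cortical development. App itself takes part in the migration of cortical neurons, the process that the study examined.

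The libraries count tags of 21 bases that start at CATG sites, and the copies of all tags of a gene were summed to its level. TPM here is that sum scaled to the clean tags of the library, without gene length. Sites are numbered from the 3′ end of the transcript, so site 1 is the last CATG. The tags that carry most copies of the genes in question are printed below because the results depend on which of them is counted. Capitals mark the last 2 bases, since the ratio between the libraries varied with the tag end.
App, site 1: catggcgtggtggaggttgAC
App, site 2: catggtgggtggcgttgtcAT
App, site 3: catgattcaggcttcgaagTC
App, site 4: catgccttctttgactgaaAC
Aplp1, site 1: catggctatgagaaccccaCC
Aplp1, site 2: catgctgaccctggaggagCA
Aplp1, site 3: catggagtggtggaggtggAC
Aplp1, site 4: catgggagctggaggaggcTC
Aplp1, site 5: catgcggaacacttgggacCT
Ncstn, site 1: catgctgttaggtgggtatCC
Aph1a, site 1: catggcatcgcagcccaagAG
Aph1a, site 3: catgtgtgggaacgggtacCA
Apbb1, site 1: catggatcccctgtcccctGT
Apbb1, site 6: catgttttggtgcgagcccAA

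The relation between the precursors is visible in these tags. The site 1 tag of App and the site 3 tag of Aplp1 shared 19 of 21 bases and differed by C6A and T18G, with positions counted from the 5′ end of the tag and the App base first. By their codons, both belong to the stretch that encodes the start of the cytoplasmic tail, and the site 1 and site 2 tags of Aplp1 lie farther along the same tail. The tags of App at sites 2 and 3 encode parts of the amyloid-β segment. These placements were read from the codons alone, and no transcript sequence was used. A further 4 tags of Aplp1 and Ncstn differed by 1 base from an abundant tag of the same site, with 2 to 5 copies each, and were listed under the same gene.

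The Scramble library held 1947600 copies on genes among 3386860 clean tags, and the PIWIL1 RNAi library 1865913 among 3303344, so that 3 copies corresponded to 0.886 and 0.908 TPM. Piwil1 was not found by its identifiers, and its knockdown was not checked here. Of 9 neuronal markers 8 had a value, whose levels summed to 4212 TPM with Scramble and 3759 TPM with PIWIL1 RNAi, with fewer copies under RNAi for 5 and more for 2. The 7 markers of radial glia and progenitors with a value summed to 1025 and 1311 TPM. That sum followed Vim (2674 and 3724 copies), and the other 6 had fewer copies with PIWIL1 RNAi. Markers of astrocytes summed to 194.6 and 203.7 TPM, those of fibroblasts and meninges to 546.2 and 523.1 TPM, and those of microglia to 27.8 and 30.9 TPM. The oligodendrocyte and erythroid lists each summed to less than 25 TPM in either library, and none of the 5 endothelial markers had a value. Of all these markers 1 was called, the neuronal gene Snap25, which was lower (918 and 545 copies). Their part in the results was not tested, and in bulk RNA fewer cells of a type cannot be told apart from less RNA per cell.

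Of the 7 genes with a value, none met the thresholds of the study, which asked for an FDR up to 0.05 and a log2 ratio of TPM of 0.58 or more in size. The FDR came from a two-sided Fisher's exact test of each gene's copies, adjusted by Benjamini-Hochberg over all 9894 genes. With 1 library per group the test speaks of the libraries rather than the conditions, and no replicate check exists. Over all genes, 5.97% were called lower and 2.96% higher in the PIWIL1 RNAi library, so that 0 of 7 in either direction is close to the background. With a coefficient of variation of 0.1 assumed in edgeR's exact test the count was also 0. This was no separate check, because the ratios were the same and an assumed spread makes the test stricter. At an unadjusted p under 0.05 by Fisher's exact test, 1 of the 7 genes, Apbb1, was lower and none higher, against 15.5% and 11% of all genes at that threshold. Scaling by edgeR's TMM factors changed the split over all genes from 591 lower and 293 higher to 459 and 398.

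**Figure D1:**
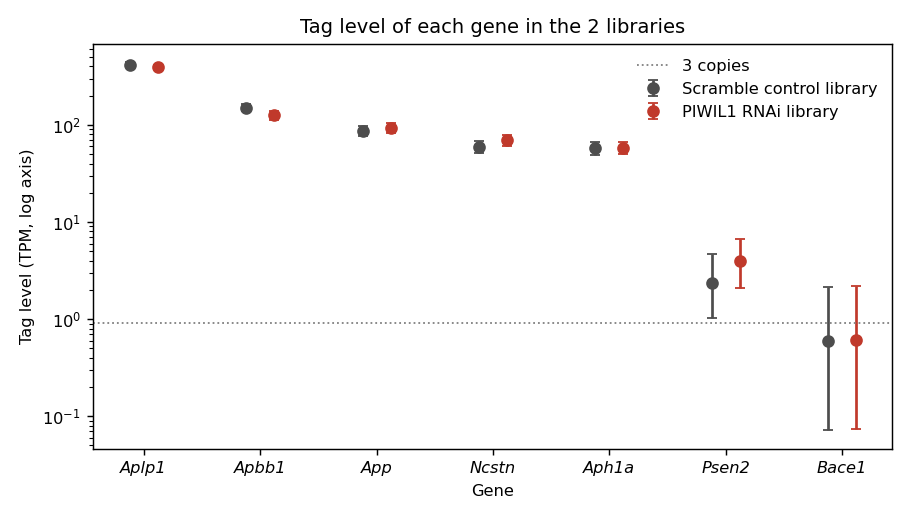
Tag level in TPM (log axis) of the 7 genes with a value in the Scramble control library (grey) and the PIWIL1 RNAi library (red), 1 library each. Bars are exact Poisson 95% intervals, which cover counting error only, and the dotted line is the level of 3 copies in the RNAi library; the intervals of the libraries overlap for every gene, most narrowly for Apbb1.

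Among the precursors, Aplp1 had the most tags. Aplp1 was counted 1416 times with Scramble and 1304 times with PIWIL1 RNAi, or 418.1 and 394.8 TPM. The log2 ratio was -0.08 (95% exact interval -0.19 to 0.03). The FDR was 0.565 (Fisher's exact test), and the ratio lay at the median of all genes listed in both libraries (-0.085). The intervals of ratios are Clopper-Pearson intervals and cover counting error only, since amplified copies are not independent molecules.
App was counted 296 times with Scramble and 307 times with PIWIL1 RNAi, or 87.4 and 92.9 TPM. Its log2 ratio was 0.09 (95% exact interval -0.15 to 0.32). In Fisher's exact test this gave FDR = 0.610. The ratio of App exceeded that of Aplp1 by 0.17 on the log2 scale (95% exact interval -0.09 to 0.43), and this difference did not pass Fisher's exact test on the copies of both genes (p = 0.192). It was the only pair of precursors that could be compared.

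The gamma-secretase subunits with many tags were Ncstn and Aph1a. Ncstn, the subunit that receives the substrate, had 201 and 231 copies, or 59.4 and 69.9 TPM, the first value being that of the Scramble library here and below. Its log2 ratio was 0.24 (95% exact interval -0.04 to 0.52). Its copies gave FDR = 0.213 in Fisher's exact test. Aph1a, a scaffold subunit of the complex, had 194 and 190 copies, or 57.3 and 57.5 TPM.
The log2 ratio of Aph1a was 0.01 (95% exact interval -0.29 to 0.30). The corresponding FDR was 0.955 in Fisher's exact test. Psen2, a presenilin and thus a catalytic subunit, was read at low depth, with 8 and 13 copies (2.36 and 3.94 TPM). The log2 ratio of Psen2 was 0.74, with a 95% exact interval from -0.64 to 2.21 (FDR 0.531 by Fisher's exact test). Its most copied tag, at site 2, had 8 and 5 copies, and without it Psen2 had 0 and 8 copies and was called higher (FDR 0.0435 by the same test).
Aph1b, the alternative to Aph1a and not among the 9 genes, had 54 copies in each library. Of the 6 pairs among Psen2, Ncstn, Aph1a and Aph1b, 0 differed in ratio by Fisher's exact test on 2 genes, at an adjusted or an unadjusted p up to 0.05. Ncstn exceeded Aph1a by 0.23 on the log2 scale (95% exact interval -0.18 to 0.64), with an adjusted p of 0.524 in that exact test.

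Bace1, the protease that makes the amyloidogenic cut, had 2 copies in each library, below the 3 copies set as the floor, and no ratio is given. Both copies in the Scramble library lay at site 12 and both in the RNAi library at site 1, so no tag of Bace1 was seen in both. Tags with 1 copy were absent from the tables.
Apbb1 was counted 510 times with Scramble and 414 times with PIWIL1 RNAi, or 150.6 and 125.3 TPM. Its log2 ratio was -0.26 (95% exact interval -0.46 to -0.07), and it had the lowest FDR of the 7 genes, 0.0680 by Fisher's exact test. With all clean tags as totals the same test gave 0.0370. The interval lay below 0 but did not reach the ratio threshold.
For App, Aplp1, Ncstn, Aph1a and Apbb1 the whole interval lay inside -0.58 to 0.58, the widest bounds being 0.52 for Ncstn and -0.46 for Apbb1. The interval of Psen2 reached past both bounds.

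The order of tag levels was the same in both libraries. Aplp1 was followed by Apbb1, App, Ncstn, Aph1a, Psen2 and Bace1. Ncstn (51.4 to 68.1 TPM, exact Poisson 95% interval) and Aph1a (49.5 to 65.9 TPM) overlapped in the Scramble library, and they also did in the RNAi library (61.2 to 79.6 and 49.6 to 66.3 TPM). The intervals of Psen2 and Bace1 overlapped as well, and those of the other neighbours did not. The order is one of tag copies, not of mRNA per length, because neither transcript length nor the number of CATG sites was used. Among the 3 genes closest to App on log2 TPM in the 2 libraries, a pattern of only 2 points, were Spast (88.3 and 92.6 TPM) and Clns1a (85.9 and 94.2 TPM).

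The single tags of a gene did not always share its ratio, and Aplp1 was the clearest case. Its site 1 tag went from 438 to 290 copies, a log2 ratio of -0.56 (95% exact interval -0.78 to -0.34). The next tag upstream, at site 2, went from 295 to 350 copies, a log2 ratio of 0.28 (95% exact interval 0.06 to 0.51). The site 4 tag went from 225 to 313 copies (0.51, 95% exact interval 0.26 to 0.77).
The site 5 tag went the other way, from 225 to 157 copies (-0.48, 95% exact interval -0.79 to -0.18). The site 9 tag had 17 and 4 copies, with an interval also below 0. Thus the level of Aplp1 near the median of all genes was a sum of tags that moved in both directions, beyond counting error, within 1 gene. Sites 1 and 2 are neighbours in the sequence that encodes the tail.
Over all abundant tags, those ending in CC had a median log2 ratio of 0.00 and those ending in TC -0.02. The Aplp1 tags with these ends at sites 1 and 4 were at -0.56 and 0.51. Another abundant Aplp1 tag ending in CC, at site 8, had 46 and 36 copies (-0.32, 95% exact interval -0.99 to 0.34). Medians of tag ends, here and below, are of copies without scaling to clean tags, unlike the ratios of single tags. At sites 2, 5 and 9 the median of the tag end had the same sign as the tag, 0.12 for CA, -0.28 for CT and -0.42 for AT. With tag ends corrected, the log2 ratio of Aplp1 was -0.17 (FDR 0.120 by Fisher's exact test). Of the 3985 genes with at least 2 tags of 20 or more copies, 330 (8.28%) had a tag with its interval above 0 and another below 0, and of the 42 genes with 10 or more such tags 19 (45.2%) did. Of the genes followed here 1 of 5 did so, Aplp1, which had 10 such tags.

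**Figure D2:**
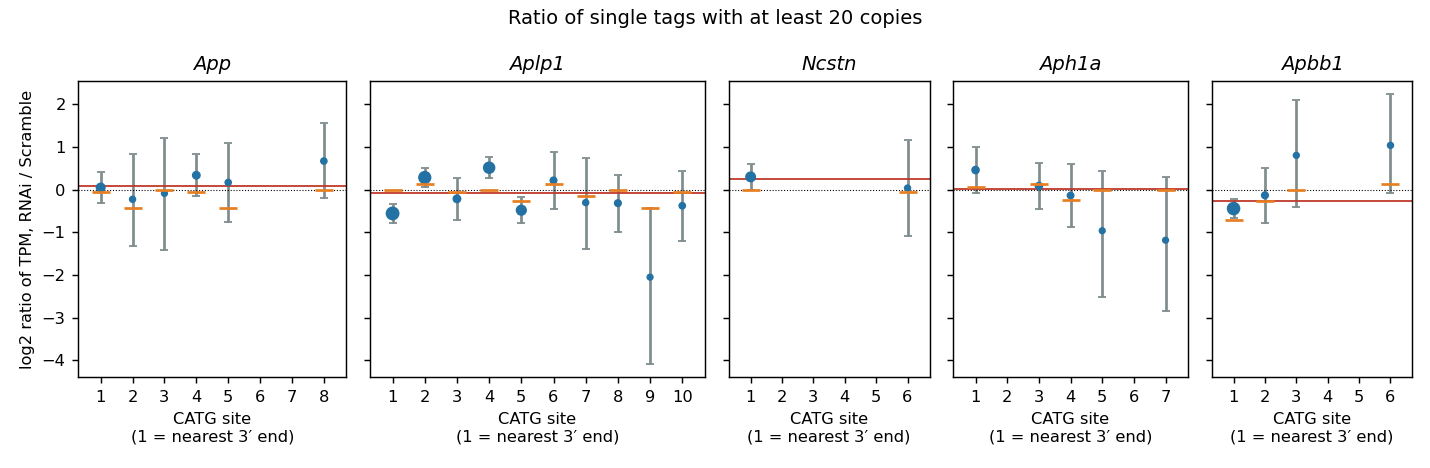
Log2 ratio of TPM (PIWIL1 RNAi over Scramble) of each tag with a sum of at least 20 copies, by CATG site counted from the 3′ end; point size grows with copies, bars are exact 95% intervals, the red line is the ratio of the whole gene and the orange dash the median of all tags with the same end. All intervals of App, Ncstn and Aph1a include 0, whereas Aplp1 has tags on both sides of it. The site 1 tag of Apbb1 lies below 0, above the median of its end class. The orange dashes rest on copies without scaling to clean tags.

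The 6 abundant tags of App did not depart from the level of the whole gene beyond counting error. The site 1 tag, in the sequence of the tail, had 127 and 128 copies (log2 ratio 0.05, 95% exact interval -0.32 to 0.41). Its site 2 and site 3 tags, in the amyloid-β segment, had 18 and 15 copies and 12 and 11 copies. The site 4 tag had 65 and 80 copies (0.34, 95% exact interval -0.15 to 0.83).
The largest ratio was that of site 8, with 20 and 31 copies (0.67, 95% exact interval -0.19 to 1.56). All 6 intervals included 0. Site 1 held 42.3% of the copies of App, 26.8% of those of Aplp1 and 32.3% of those of Aph1a, against 63.6% over all genes. Apbb1 (74.1%) and Ncstn (84.0%) were read mainly from site 1, and Psen2 had no copy there.

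The lower level of Apbb1 rested on a single tag. The site 1 tag went from 399 to 286 copies, a log2 ratio of -0.44 (95% exact interval -0.67 to -0.22). The other tags of Apbb1 together were counted 111 and 128 times, a log2 ratio of 0.24. The site 6 tag had 11 and 22 copies (1.04, 95% exact interval -0.07 to 2.23).
The site 1 tag ends in GT, and the median log2 ratio of all abundant tags with that end was -0.70. With copy numbers corrected for the tag end, the log2 ratio of Apbb1 was 0.13 (FDR 0.289 by Fisher's exact test). Its direction thus differed between the site 1 tag and the rest, and no sign can be given to the gene as a whole.
In Ncstn the site 1 tag held 81.9% of the copies and went from 161 to 193 (0.30, 95% exact interval -0.01 to 0.61), and the remaining tags had 40 and 38 copies. In Aph1a the site 1 tag had 53 and 71 copies (0.46, 95% exact interval -0.08 to 0.999) and the site 3 tag 60 and 62 copies. The tags of Aph1a at sites 5 and 7 had 14 and 7 copies and 14 and 6 copies.
When the site nearest the 3′ end alone was counted, a setting chosen after seeing the data, the log2 ratio was -0.56 for Aplp1 (FDR 2.04e-06 by Fisher's exact test) and -0.44 for Apbb1 (FDR 0.000441). These FDR values passed 0.05 and the ratios fell short of 0.58, so neither was called. App was at 0.05 from its site 1 tag and at 0.09 from all tags.

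**Figure D3:**
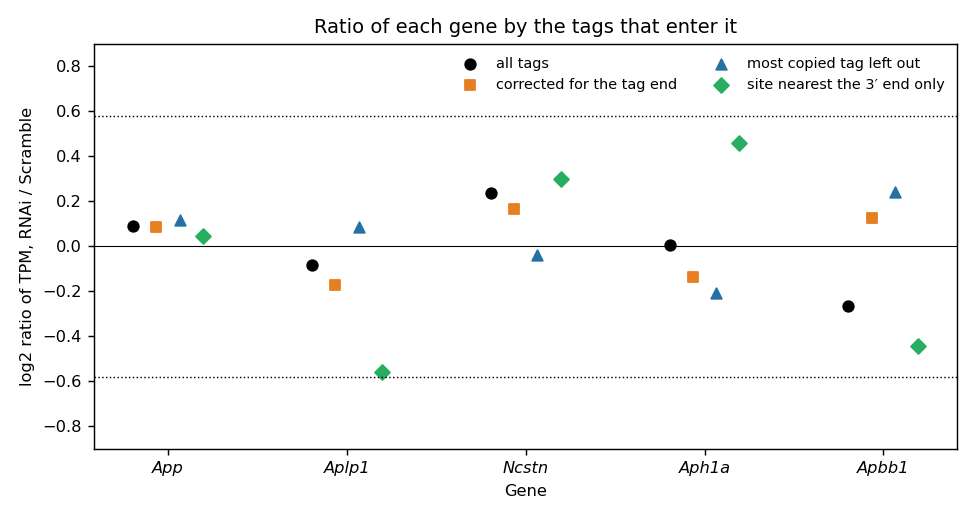
Log2 ratio of TPM (PIWIL1 RNAi over Scramble) of the 5 genes with many copies, computed from all tags, from copies corrected for the tag end, without the most copied tag, and from the site nearest the 3′ end alone; dotted lines mark -0.58 and 0.58. App keeps to between 0.05 and 0.12, Aplp1, Ncstn, Aph1a and Apbb1 have values on both sides of 0, and no point passes the dotted lines.

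The wider pathway was read from 91 further genes chosen by role, of which 78 had a value. Of these, 5 (6.41%) were called lower and 1 (1.28%) higher, against 5.97% and 2.96% of all genes. For the 65 genes with copies in each library the median log2 ratio was 0.04, against -0.085 over all genes. Another 8 passed the FDR threshold of Fisher's exact test with a ratio short of 0.58, 4 in each direction. With a coefficient of variation of 0.1 assumed in edgeR's exact test, 1 of the 6 called genes, Dab1, was still called.

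Among the proteases of the first cut, 1 of 3 with a value was called lower, Bace2, a relative of Bace1. It had 8 copies with Scramble and none listed with PIWIL1 RNAi (FDR 0.0480 by Fisher's exact test). Set against the floor of 3 copies this was 2.60-fold lower, which is not a lower bound. The exact interval of its log2 ratio reached up to -0.735. Without tags ending in 8 or more A the FDR was 0.0502 by the same test, above the threshold. The alpha-secretase gene Adam17 had 32 copies in each library, and Adam9 had 9 and 5.

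Among the other cytoplasmic adaptors, 1 of 16 was called, Dab1, the adaptor of Reelin signalling, which also binds the tail of App. It fell from 61 to 23 copies, a log2 ratio of -1.37 (95% exact interval -2.13 to -0.66). In Fisher's exact test this gave FDR = 0.000904. Its most copied tag, catgctgttcacgaaatttCC at site 7, went from 37 to 19 copies. Without that tag the log2 ratio was -2.55, and with an assumed coefficient of variation of 0.1 the FDR was 0.0413 by edgeR's exact test. Grb2 (593 and 605 copies) and Fkbp4 (401 and 337 copies) were not called.

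Among sorting and trafficking genes, 2 of 21 were called lower. Rtn3, a reticulon that binds Bace1, fell from 113 to 57 copies, a log2 ratio of -0.95 (95% exact interval -1.44 to -0.48). Its copies gave FDR = 0.000780 in Fisher's exact test. Its most copied tag, catggaaacccagtcagctTG, went from 34 to 8 copies, and tags ending in TG had a median of -0.71. With tag ends corrected Rtn3 was still called lower (-0.77, FDR 0.0196 by Fisher's exact test). Without that tag the log2 ratio of Rtn3 was -0.65. The corresponding FDR was 0.217 in Fisher's exact test.
Sorcs3, a sortilin-family receptor, had 10 copies with Scramble and none listed with PIWIL1 RNAi (FDR 0.0158 by Fisher's exact test). Set against 3 copies this was 3.25-fold lower, again not a lower bound. The 95% exact interval of its log2 ratio reached up to -1.13. Its copies lay equally on the tags at sites 1 and 3, with 5 on each, so neither tag dominated. With the site 1 tag left out the FDR was 0.304 by Fisher's exact test. Rtn4 (1102 and 1168 copies), Vps29 of the retromer (479 and 502 copies) and the adaptor Gga1 (402 and 401 copies) were not called. Sort1 had 219 and 285 copies (0.42, FDR 0.00676 by Fisher's exact test) and Vps35 363 and 428 copies (0.27, FDR 0.0276). Both ratios were upward and short of the threshold, and with tag ends corrected they were 0.21 and 0.07.

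Tmed10, a cargo receptor of the early secretory pathway that also associates with gamma-secretase, was the 1 gene of the list called higher from all tags. It rose from 197 to 297 copies, a log2 ratio of 0.63 (95% exact interval 0.36 to 0.90). In Fisher's exact test this gave FDR = 1.34e-05. The rise lay in the tag catgggtgggacacaaaacAA, with 140 and 235 copies and 75.9% of the copies of the gene. Without it the log2 ratio of Tmed10 was 0.16, and with tag ends corrected it was 0.42, neither of which was called. Under that correction Arf6, a GTPase of membrane traffic, was called higher instead (0.61, FDR 6.03e-06 by Fisher's exact test), from 249 and 283 copies and an uncorrected ratio of 0.22.
Tmed2, the partner of Tmed10, had 556 and 444 copies (-0.29) and Itm2c 436 and 338 copies (-0.33). Both had an FDR under 0.05 in Fisher's exact test and a ratio short of the threshold. Without its most copied tag Tmed2 was called lower (-0.85, FDR 1.18e-07 by Fisher's exact test), whereas with tag ends corrected Tmed2 was at -0.18 and Itm2c at 0.03, with an FDR of 0.379 and 0.752. Itm2b, whose product binds App, had 1779 and 1901 copies (0.13, FDR 0.00892 by Fisher's exact test), and -0.06 with tag ends corrected.

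None of the 11 genes of peptide degradation and transport was called by Fisher's exact test. The stricter edgeR's exact test with a coefficient of variation of 0.1 also called none. The protease gene Ctsb had 541 and 642 copies (0.28, FDR 0.00273 by Fisher's exact test), and its ratio was 0.14 with tag ends corrected. Cst3, a protease inhibitor, had 665 and 637 copies, and the lipid carrier Apoe 507 and 525 copies. At an unadjusted p under 0.05 by Fisher's exact test, 1 of the 11 was higher (Ctsb) and 1 lower (Clu), against 11% and 15.5% of all genes.

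Of 19 other substrates of gamma-secretase with a value, 1 was called. Cdh2, which encodes N-cadherin, fell from 1064 to 680 copies, a log2 ratio of -0.61 (95% exact interval -0.75 to -0.47). Its copies gave FDR = 4.40e-15 in Fisher's exact test. Cdh2 stood at -0.45 once tag ends were corrected and at -0.50 without its most copied tag, both short of the threshold. Sdc3, a syndecan, had 528 and 345 copies and a log2 ratio of -0.58 (-0.5779, just short of the threshold), and the ephrin receptor gene Epha4 had 219 and 157 copies (-0.44). Notch1 had 48 and 30 copies (-0.64, FDR 0.234 by Fisher's exact test).

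**Figure D4:**
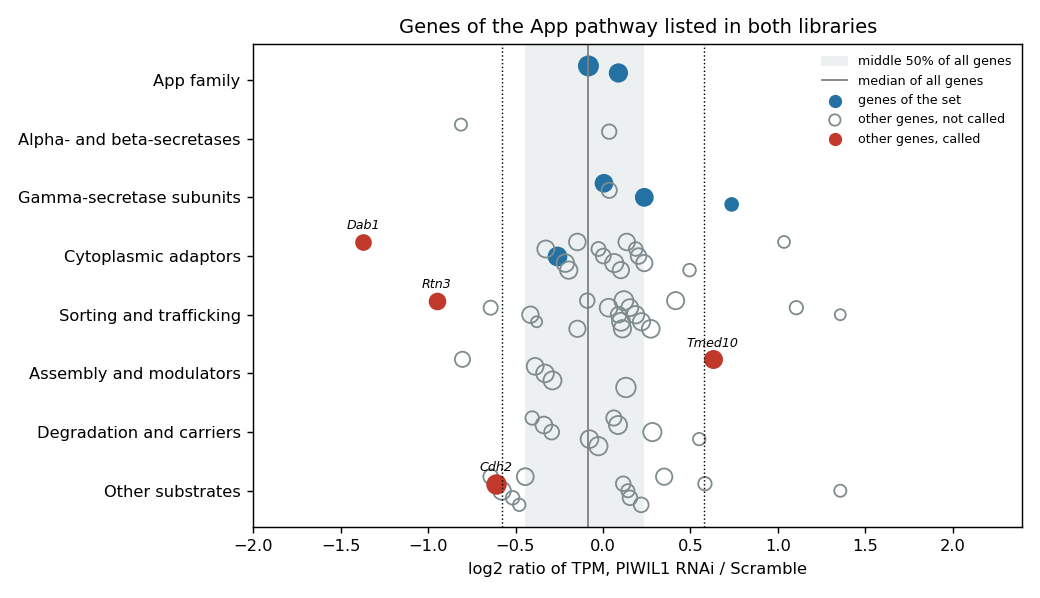
Log2 ratio of TPM (PIWIL1 RNAi over Scramble) of genes of the pathway listed in both libraries, by role, with more than 3 copies in at least 1 library; point size grows with copies, the grey band is the middle 50% of all genes, the grey line their median and dotted lines mark -0.58 and 0.58. The genes of the set (blue) all lie between the dotted lines except Psen2 (0.74, with 8 and 13 copies), and the called genes (red) are Dab1, Rtn3 and Cdh2 on the left and Tmed10 on the right.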

How the data were processed

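Digital gene expression libraries, 1 of Scramble control and 1 of PIWIL1 RNAi neurons, were used. The authors deposited the tag count of each gene, the sum of its tag copy numbers, and TPM, scaled to clean tags; each tag was listed under 1 gene and none had fewer than 2 copies. The submitters' processing notes name the build rn4; the matching program is not given in the sources used here. Symbols came from RefSeq accessions (9337 of 9894 genes), and no coordinates are printed. Clean tags per library were computed from deposited counts and TPM (3386860 and 3303344). Fisher's exact test set a gene's copies against all other copies on genes (1947600 and 1865913), whereas ratios and their intervals used clean tags. It was run on all genes, because 1 library per group leaves no residual for a quasi-likelihood test. A call needed an FDR up to 0.05 and a log2 ratio of 0.58 or more in size, and a gene listed in only 1 library passed the ratio threshold. Pairs of subunits were adjusted over 10 tests. To correct for tag ends, classes were formed from the final 2 bases, or from the A run where it had 3 or more (capped at 13). Class medians of the log2 ratio, over tags with at least 20 copies (0.5 added), came from one random part of the genes and were removed from the rest. Named were the 9 genes, called genes of the wider list, the 3 with most copies in each role and the 3 nearest to App; Snap25, Vim, Clu, Notch1 and Arf6 were named after their values were seen, and some genes that the rule selects are not reported here. The genes and lists were chosen with earlier results of these data known. Results were recomputed under 15 other settings chosen at the start and 1, the site nearest the 3′ end alone, chosen after seeing the data. They covered scaling, library totals, an assumed spread, low counts, tag selection and thresholds. The test, the intervals and the correction were tested on simulated data. Python 3.11.15, SciPy 1.17.1, NumPy 2.4.6, pandas 2.3.3, Matplotlib 3.10.9, R 4.3.3, edgeR 4.0.16 and DESeq2 1.42.0 (size factors only) served for the count data.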

Additional observations from a re-analysis of the deposited data

How the results depend on the processing

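App, Aplp1, Ncstn, Aph1a and Apbb1 were called under none of the 16 alternatives. Of the 94 values of these genes and Psen2, 86 kept their direction, but many of the 86 could not have changed. Clean tags as test totals, an assumed spread, a filter on low copy numbers and other thresholds leave a ratio as it is. Summing per symbol and leaving out tags ending in a run of A also left these ratios unchanged. The 8 values that turned all came from other settings. Aplp1 turned to 0.01 (0.012) with TMM factors, 0.002 (0.0021) with DESeq2 size factors and 0.0882 without its most copied tag. Without the most copied tag, Ncstn was -0.04 (-0.038), Aph1a -0.21 and Apbb1 0.24. Corrected for the tag end, Aph1a was -0.13 and Apbb1 0.13, and the difference of Ncstn and Aph1b was -0.00063. The value with TMM or DESeq2 follows from the scaling; for the others the cause was not tested. Of the 7 genes, 1 was called higher without its most copied tag, Psen2. In the wider list, the count called lower was 5 as reported, 1, 0 and 0 with assumed coefficients of variation of 0.1, 0.2 and 0.4, 2 without the most copied tag (Dab1, and Tmed2, which was not among the 5), 3 with 1 copy put back per missing tag, 3 at a log2 threshold of 1 and 3 at an FDR of 0.001. The count called higher was 1 as reported, 0 with each of those coefficients of variation, without the most copied tag and at a log2 threshold of 1, and 2 at the site nearest the 3′ end alone, a setting chosen after seeing the data. Over all genes, the counts were 591 lower and 293 higher as reported, 170 and 114, 2 and 15, and 0 and 0 with those coefficients of variation, 366 and 187 after the tag-end correction, 250 and 128 without the most copied tag, 262 and 146 at a log2 threshold of 1, and 257 and 163 at an FDR of 0.001. No paired analysis was possible because each group had 1 library, and no library could be left out. Low copy numbers limit Psen2 and Bace1.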
